A study of Anopheles gambiae with 6 samples.

Results

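Of 16884 probe sets of the malaria mosquito Anopheles gambiae on an expression array, 111 (0.657%) gave low values in the embryo and clear signal in the serosa at 10.5 h of development. Members were chosen by these values themselves: the log2 value had to be below 6.5 on each of 3 embryo arrays and above 7.0 on each of 3 serosa arrays. The scale is that of log2 values from robust multi-array averaging (RMA), where 1 unit is a 2-fold difference. Because the rule used the serosa and embryo values of all 6 arrays, the difference between the tissues is a description for these members and was given no test of its own.

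The serosa samples were 3 biological replicates of RNA from the serosa, recovered from eggshells that stayed behind when fixed embryos were dissected out by hand. The embryo samples were 3 biological replicates of RNA from those hand-dissected embryos. Both tissues came from the Kisumu strain, were 10.5 h old and had been fixed in formaldehyde, and each RNA was amplified in a 2-step protocol, labelled with biotin and hybridized to 1 Affymetrix Plasmodium-Anopheles array. The shell preparations hold whatever else remained on the shell, and 1 sentence of the design text calls the embryo group whole embryos where the labels say dissected.

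The serosa is an epithelium outside the embryo proper that grows around it beneath the eggshell. In mosquitoes its cells secrete a cuticle that contains chitin, and this layer is known for protecting the egg from drying out. Unlike fruit flies, which have a single reduced amnioserosa, Anopheles keeps the serosa and the amnion as separate membranes. A transcript made in serosal cells and not in the embryo would therefore give signal on the serosa arrays alone. In such bulk RNA, fewer cells of a type and less RNA per cell cannot be told apart.

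Nothing in the files links the IDs to genes, and 0 of the 111 IDs matched a table of 15165 RefSeq genes. Members are therefore named by ID, no gene function is given, and neither tissue could be checked against its marker genes. The ID itself names a chromosome arm (2L, 2R, 3L, 3R, X, or UNKN where none is given), a number, and whether the probes lie in coding sequence (CDS), an untranslated region (UTR) or neither. In Affymetrix naming, s_at marks probes shared by transcripts of more than 1 gene, so the 9 members of this type can report more than 1 gene.

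The label of this set, on in serosa and off in embryo, held as far as the limits of the rule go and no further. Signal without a target was gauged in 2 ways. The unspecific level was taken at the 95th percentile of values from Plasmodium probe sets and lay between 3.92 and 4.02 on the serosa arrays and between 3.87 and 4.0 on the embryo arrays. The human-probe level, the 95th percentile of the 290 probe sets with IDs of human arrays, lay between 6.32 and 6.47 in serosa and between 6.10 and 6.29 in embryo. All members exceeded both levels on every serosa array, since the limit of 7.0 lies above them. In embryo, 68 members did not exceed the human-probe level on any array, 24 were over it on 1 array, 14 on 2 arrays and 5 on all 3. On all 3 embryo arrays, 109 members were over the lower, unspecific level. So was the median of all Anopheles probe sets (4.89, 4.89 and 4.85 on embryo replicates 1, 2 and 3), so this does not set the members apart. The members are thus low in embryo, and complete absence was not measured.

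**Figure D1:**
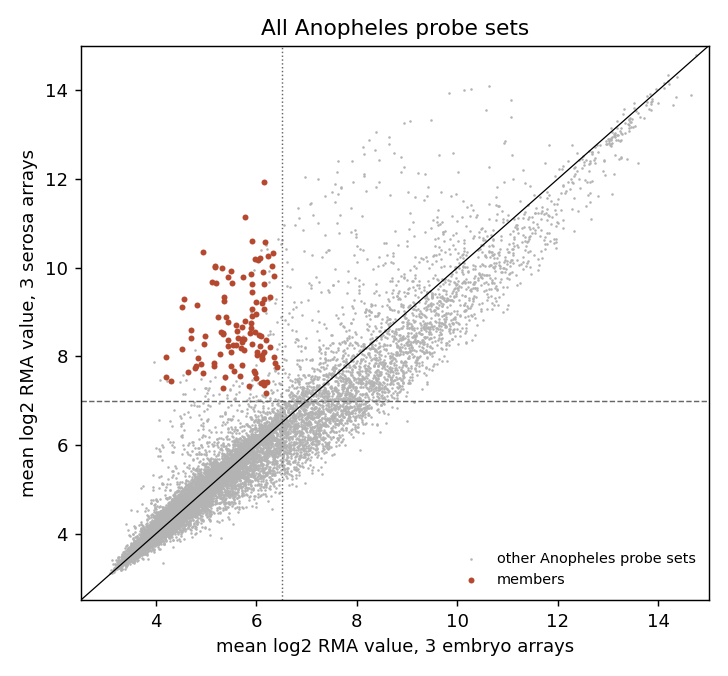
Mean log2 RMA value on the 3 serosa arrays (vertical axis) against the mean on the 3 embryo arrays (horizontal axis) for all 16884 Anopheles probe sets, with the 111 members in red, the limit of 7.0 for serosa dashed and the limit of 6.5 for embryo dotted. The members lie above the diagonal with serosa means of 7.18 to 11.93, and most other probe sets follow the diagonal.

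Serosa means of the members ran from 7.18 to 11.93 with a median of 8.47, and 13 members exceeded 10. Embryo means ran from 4.19 to 6.4 with a median of 5.73. The difference, serosa minus embryo, had a median of 2.99, against 0.01 over all Anopheles probe sets, and it lay between 1.00 and 5.78. Differences of at least 2 were found in 92 members, of at least 3 (8-fold) in 53, of at least 4 in 21 and of at least 5 in 3. Since many embryo values lay in the range of unspecific signal, each difference was also bounded by raising embryo values under the human-probe level to that level. The bounded rise was at least 1.89-fold in every member, at least 4.81-fold in the median member and at least 51.1-fold in the member with the largest bound. These bounds are taken from group means of the values as deposited. With the hybridization controls described below made equal, the median unbounded difference fell to 2.39.

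**Figure D2:**
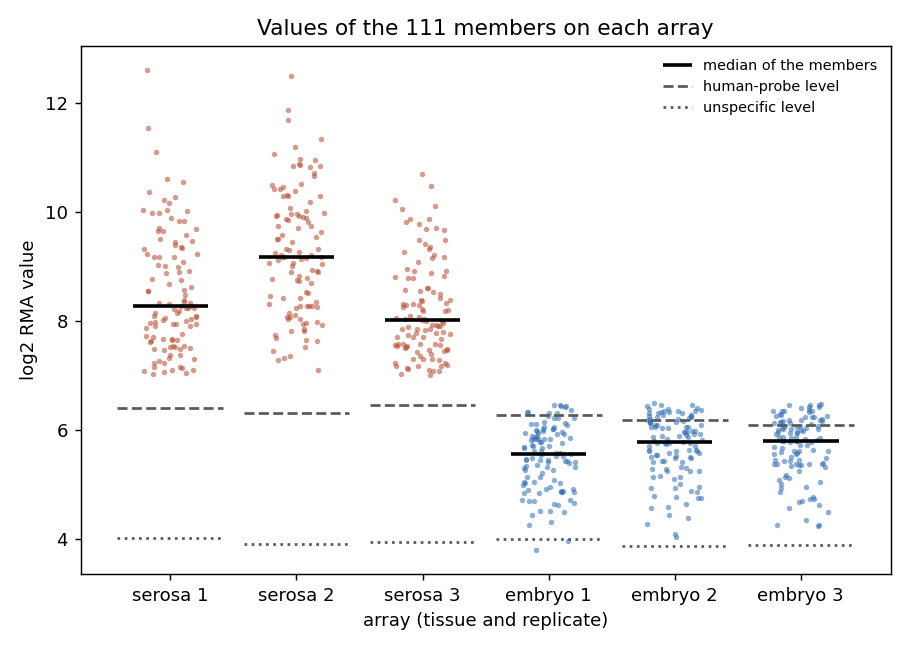
Log2 RMA values of the 111 members on the 3 serosa arrays (red) and the 3 embryo arrays (blue). Each point is a member, black bars are medians (8.28, 9.18 and 8.02 in serosa, 5.56, 5.78 and 5.81 in embryo), and the dashed and dotted lines are the human-probe and unspecific levels of each array.

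A limma fit to all Anopheles probe sets called 110 of the 111 members higher in serosa at an adjusted p under 0.05, beside 3.61% of all probe sets called higher. The rule fixed this outcome almost entirely, and nothing is read from it. The 609 calls behind that share numbered 312 without embryo replicate 2, 325 without embryo replicate 3 and 402 without serosa replicate 1. The exception was Ag.2R.2828.0_CDS_s_at, named after its values were seen, which measured 7.52, 8.74 and 7.04 on the serosa arrays and 6.34, 6.44 and 6.42 on the embryo arrays. Its limma adjusted p was 0.0715, and with the replicate number as a block all 111 were called, beside 4.44% of all probe sets. By construction no member had overlapping groups, whereas the lowest serosa value exceeded the highest embryo value in 13.2% of all Anopheles probe sets. Of the 128 probe sets called at least 8-fold higher in serosa (0.758% of all), 53 were members, and the other 75 failed a limit of the rule.

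The 4 members with the most signal in serosa were coding probe sets of arms 3L and 2R. Probe sets differ in how well they bind their targets, so the order of their levels is not an order of transcript abundance. Ag.3L.920.0_CDS_s_at measured 12.61, 12.50 and 10.69 on serosa replicates 1, 2 and 3, against 6.32, 5.89 and 6.26 on the embryo arrays of the same numbers. It had the largest difference of all members, 5.78, and its probes are of the shared type. Ag.3L.479.0_CDS_at measured 11.09, 11.88 and 10.49 in serosa and 5.69, 6.40 and 5.26 in embryo. This second probe set of arm 3L averaged 11.15 ± 0.70 in serosa and 5.78 ± 0.58 in embryo (SD, n = 3 each), at least 29.7-fold higher with the bound. On arm 2R, Ag.2R.16.0_CDS_at measured 10.02, 11.68 and 10.11 in serosa and 5.61, 5.93 and 6.19 in embryo. Ag.2R.537.0_CDS_at measured 10.29, 11.20 and 10.22 in serosa and 5.94, 6.15 and 6.43 in embryo. Both were brightest on serosa replicate 2, with differences of 4.69 and 4.39.

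The widest gap between the lowest serosa and the highest embryo value was again found in the 2 probe sets of arm 3L, followed by 2 of the X chromosome. Ag.X.399.1_at measured 10.04, 10.72 and 9.27 in serosa and 5.04, 5.32 and 5.14 in embryo, a difference of 4.85. Ag.X.1529.0_a_at measured 9.17, 9.59 and 8.56 in serosa and 4.32, 4.65 and 4.57 in embryo, a difference of 4.6. Both X-linked probe sets lay under the human-probe level and over the unspecific level on every embryo array. Only 1 arm and number in the IDs held more than 1 member. Its coding probe set, Ag.2L.191.0_CDS_s_at, measured 8.03, 8.32 and 7.92 in serosa and 6.02, 6.35 and 6.07 in embryo. Its other member, Ag.2L.191.2_s_at, measured 7.06, 7.68 and 7.58 in serosa and 3.80, 4.57 and 4.51 in embryo. The second had a difference of 3.15 and the first 1.94, and the second was under the unspecific level on embryo replicate 1. The rule for naming also took the first members by ID of arm 2L. Ag.2L.115.0_CDS_at measured 10.03, 9.90 and 9.09 in serosa and 5.03, 4.94 and 5.39 in embryo. Ag.2L.1121.0_CDS_at measured 9.04, 9.06 and 7.31 in serosa and 6.22, 6.23 and 5.84 in embryo. In both, serosa replicate 3 was the lowest of the serosa arrays and still above all embryo arrays.

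**Figure D3:**
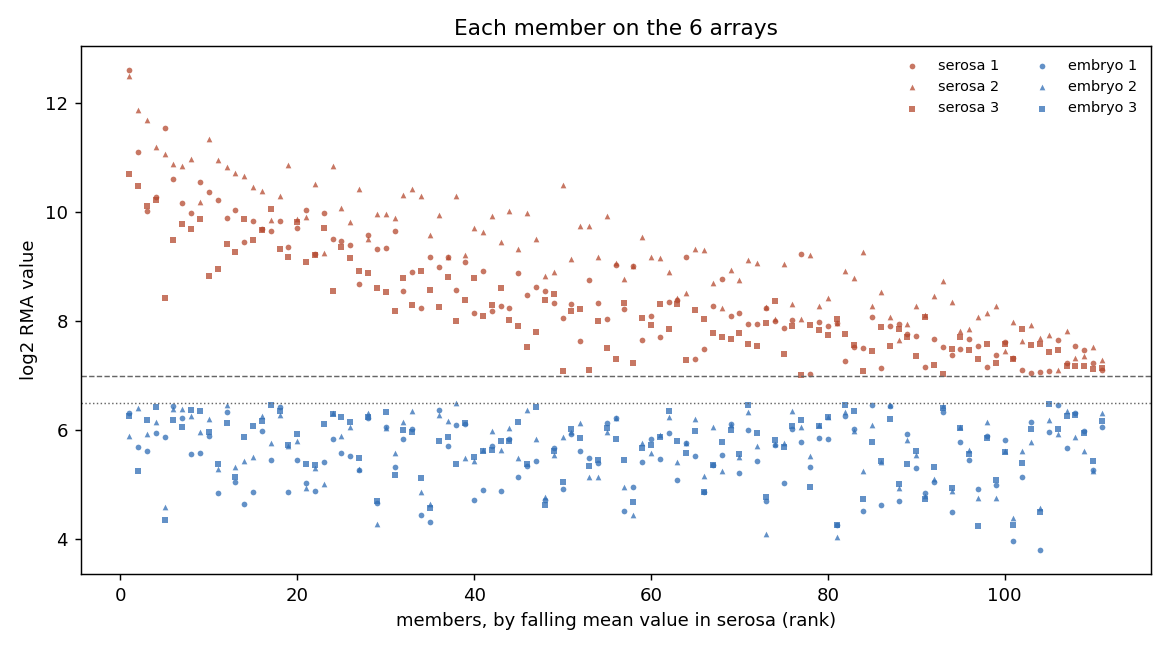
Log2 RMA values of each of the 111 members on the 3 serosa arrays (red) and the 3 embryo arrays (blue), ordered by falling serosa mean, with the limits of 7.0 (dashed) and 6.5 (dotted). Serosa means fall from 11.93 to 7.18 along the axis, and the embryo values show no matching slope (Pearson's r of the means 0.16 across members).

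Embryo and serosa means were only weakly related across the members (Pearson's r 0.16, Spearman's rho 0.10, n = 111 probe sets that share the same 6 arrays, and both are truncated by the rule). The members varied more between the serosa arrays than between the embryo arrays. Their median SD was 0.60 in serosa and 0.24 in embryo, against 0.33 and 0.22 for the 2042 other probe sets above 7.0 on each serosa array. In 61 members the serosa arrays spanned more than 1 log2 unit, in 16 more than 2 and in 2 more than 3, while in 19 they spanned less than 0.5. The widest spread was that of Ag.3L.981.0_CDS_at, with 8.05, 10.49 and 7.09 in serosa and 4.92, 5.88 and 5.05 in embryo. Ag.2R.1851.0_CDS_at was next, with 11.55, 11.06 and 8.43 in serosa and 5.88, 4.59 and 4.35 in embryo. The first was high on serosa replicate 2 and the second low on serosa replicate 3. The tightest was Ag.X.279.0_CDS_a_at, with 7.96, 7.96 and 8.05 in serosa and 4.27, 4.05 and 4.25 in embryo. Ag.3L.2137.0_s_at followed with 8.38, 8.42 and 8.31 in serosa and 5.09, 5.41 and 5.81 in embryo. In these, every serosa array exceeded every embryo array by at least 2.5 log2 units.

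The spread had a common direction. Serosa replicate 2 gave the highest of the serosa values in 91 members (82.0%), replicate 1 in 16 and replicate 3 in 4, and replicate 3 gave the lowest in 75 (67.6%). The medians of the members were 8.28, 9.18 and 8.02 on serosa replicates 1, 2 and 3. Among the 2042 other probe sets above 7.0 on each serosa array, replicate 2 was highest in 51.5% and replicate 3 lowest in 49.5%, and among all Anopheles probe sets these shares were 37.9% and 33.6%. Relative to the embryo mean, the members lay higher by a median of 2.8, 3.74 and 2.53 on the 3 serosa arrays. The 499 other probe sets called higher in serosa had medians of 1.34, 1.56 and 1.01, and the 1484 called lower had medians of -0.99, -1.12 and -0.89. Serosa replicate 2 was thus the farthest from the embryo mean and replicate 3 the nearest in all 3 sets. The 18 hybridization controls, added before hybridization, averaged 10.02, 10.82 and 9.56 on the same arrays, the same order as the members, and 9.64, 9.57 and 9.40 on the embryo arrays. After the controls were made equal on all arrays, the medians of the members were 8.09, 8.20 and 8.29, and replicate 2 was no longer the highest. It stayed the highest under the other scalings. The medians were 8.39, 9.07 and 8.21 after quantile normalization of the Anopheles values alone. With the medians of bright probe sets made equal, they were 8.44, 9.34 and 8.19. A control for the human Alu repeat had another order, with 11.79, 8.63 and 10.65 in serosa, and measured 9.72, 6.26 and 5.67 in embryo. Both kinds of control were thus higher in serosa for every replicate number, as the members were. The part of these controls in the spread and in the difference between tissues was not tested further.

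**Figure D4:**
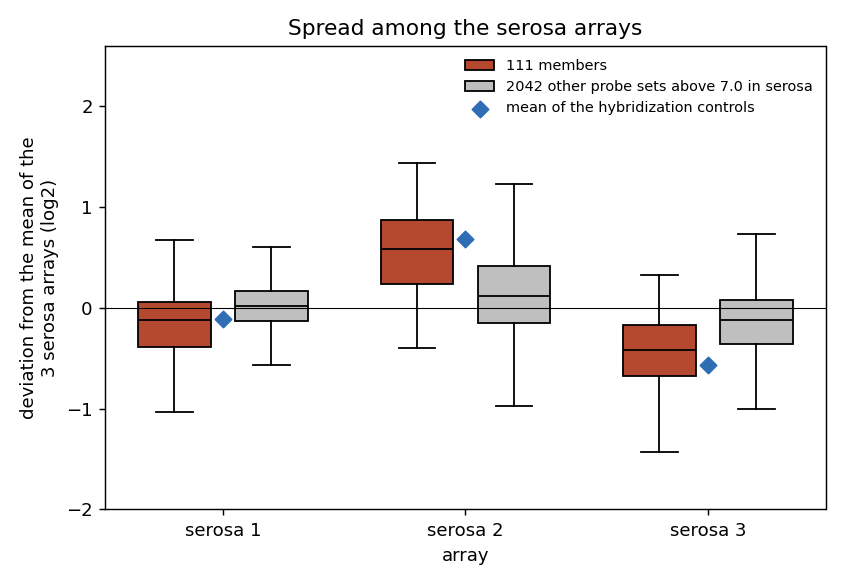
Deviation of each probe set from its mean over the 3 serosa arrays, in log2 units, for the 111 members (red) and the 2042 other probe sets above 7.0 on each serosa array (grey). Boxes span the quartiles with the median as a line, whiskers reach the last value within 1.5 box lengths, and blue diamonds are the mean of 18 hybridization controls. Members deviate by a median of -0.13, 0.59 and -0.42 on serosa replicates 1, 2 and 3, against 0.02, 0.12 and -0.12 for the other probe sets.

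Members were also chosen again without both arrays of 1 replicate number, and the left-out pair was then read. This step was added after the data were seen. Without replicate 1, 132 probe sets were chosen, and all 132 were higher on the left-out serosa array than on the left-out embryo array, 123 of them (93.2%) by at least 2-fold. Among all Anopheles probe sets, 46.9% were higher on that serosa array and 3.33% by at least 2-fold. Without replicate 2, all 135 chosen were higher and 130 (96.3%) by at least 2-fold, against 4.77% of all. Without replicate 3, 140 of 141 were higher and 120 (85.1%) by at least 2-fold, against 2.42% of all. The median difference on the left-out pair was 2.69, 3.46 and 2.25, largest for replicate 2 and smallest for replicate 3. The limits themselves were met on the left-out pair by 84.1%, 82.2% and 78.7% of those chosen, against 1.27%, 1.59% and 1.09% of all. Those that met them are, by construction, the 111 members. All arrays had been brought to a common distribution together, so the left-out pair was not processed apart from the others. The shares of all probe sets include many of low signal (medians of 4.91, 4.92 and 4.92 on serosa replicates 1, 2 and 3). They are not shares of probe sets bright in serosa, so these counts are a description and no test.

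The same limits were then applied to other probe sets of the array. None of the 4506 Plasmodium probe sets, the 290 with human-array IDs or the 144 controls met them, although 12, 3 and 42 of these lay above 7.0 on each serosa array. Beside the 111 members, 44 Anopheles probe sets met them with the tissues exchanged (below 6.5 in serosa and above 7.0 in embryo). Members and exchanged probe sets numbered 125 and 24 after quantile normalization of the Anopheles values alone, 134 and 9 with the medians of bright probe sets made equal, and 58 and 45 with the hybridization controls made equal. Members were more numerous under each of these scalings, by a margin that differed between them. On the embryo side, 27 further probe sets missed the rule on a single embryo array, 18 of them on replicate 2. On the serosa side, 46 missed it on a single serosa array, 25 of them on replicate 3 and 16 on replicate 1.

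The limits cut through a range of values with no break. Just inside the embryo limit, Ag.2R.3178.2_at reached 6.49 on embryo replicate 2, with 8.57, 10.30 and 8.0 in serosa. Ag.3L.538.0_CDS_at reached 6.47 on embryo replicate 3, with 7.09, 7.74 and 7.43 in serosa. Each of these members came near the limit on that 1 array. Just outside it, Ag.2L.1407.0_CDS_at reached 6.502 on embryo replicate 2, with 9.78, 10.60 and 9.43 in serosa. Ag.2L.1491.0_CDS_at reached 6.54 on the same array, with 9.14, 10.85 and 9.84 in serosa. Both of these non-members had a larger difference (3.68 and 3.98) than the members just inside (2.97 and 1.21). At the serosa limit, Ag.2R.445.0_UTR_a_at had its lowest serosa value of 7.005 on replicate 3 beside 9.23 and 8.03. Ag.3R.745.0_CDS_a_at had 7.02 on replicate 1 beside 9.21 and 7.93. Both had a single low serosa array. Just outside, Ag.2R.1394.1_CDS_at had 6.96 on serosa replicate 3 beside 8.10 and 8.21. Ag.2R.1625.0_CDS_at had 6.94 on serosa replicate 1 beside 7.05 and 7.81. Members and non-members at this limit overlapped in their other serosa values.

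The IDs give features that the rule did not use. Members came from all arms, with 33 on 2R (29.7%), 30 on 2L (27.0%), 20 on 3R (18%), 13 on 3L (11.7%) and 11 on X (9.91%). Among all Anopheles probe sets these arms held 26.3%, 20.3%, 18.8%, 14.8% and 8.31%, each inside the 95% binomial interval (exact Clopper-Pearson) of the share of members. UNKN held 4 members (3.60%, interval 0.990% to 8.97%), against 11.5% of all probe sets and 5.88% of the other 2042 above 7.0 in serosa. The share of all lies outside that interval and the share of the 2042 inside it. Probe sets are not independent of each other, so these intervals cover counting error only. Between arms, the median difference was 2.69 on 2L, 3.07 on 2R, 3.14 on 3L, 2.74 on 3R and 3.80 on X. For the 4 members of UNKN it was 3.81. The ranges overlapped widely, from 1.28 to 4.67 on 2L and from 1.47 to 4.85 on X.

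Coding probe sets made up 80 members (72.1%), UTR probe sets 12 (10.8%) and those of neither class 19 (17.1%). Over all Anopheles probe sets the shares were 83.3%, 4.68% and 12%, and over the 2042 other probe sets above 7.0 in serosa they were 52.9%, 18.6% and 28.5%. UTR members were thus a larger share than in all probe sets, whose share lay below their interval of 5.71% to 18.1%, and a smaller one than among probe sets bright in serosa, whose share lay above it. Rises were of like size in the classes, with median differences of 3.01 (coding), 2.68 (UTR) and 2.97 (neither).

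For 28 members, the array holds 34 other probe sets with the same arm and number, called partners here. The rule did not choose them. No source used here says what the number stands for, so whether a partner reads the same gene as its member is not known. The comparison of members with partners was added after the data were seen. The partners' differences had a median of 0.62 and a range of -0.09 to 5.07. Their mean was higher in serosa in 32 of 34, beside 51.7% of all Anopheles probe sets. The lowest serosa value exceeded the highest embryo value in 24 partners, beside 13.2% of all, and limma called 16 higher, beside 3.61% of all. At the same time, 18 partners did not exceed the human-probe level on any of the 6 arrays, where a difference is hard to measure. The median of all Anopheles probe sets (4.85 to 4.92) also lay under that level on every array, so this does not set the partners apart.

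In 5 of the 28 members, a partner was above 7.0 on every embryo array, so that partner gave clear signal in embryo. There were 3 such members where the third field of the ID had to match too, and 1 with the hybridization controls made equal. The share of all Anopheles probe sets above 7.0 on every embryo array is not given here. For scale, 2153 of 16884 were above 7.0 on each serosa array, so the count is a description only. Ag.2R.33.1_a_at, a member, measured 9.59, 9.51 and 8.89 in serosa and 6.22, 6.32 and 6.25 in embryo. Its partner Ag.2R.33.0_CDS_a_at measured 11.95, 12.54 and 11.34 in serosa and 7.57, 8.16 and 8.06 in embryo, a difference of 4.01. Ag.2L.606.0_CDS_a_at, a member, measured 7.14, 8.54 and 7.89 in serosa and 4.63, 5.42 and 5.43 in embryo. Its UTR partner Ag.2L.606.1_UTR_s_at measured 11.57, 12.48 and 11.41 in serosa and 7.84, 8.50 and 8.81 in embryo, a difference of 3.44. In both pairs the partner was above 7.0 on every array of the 2 tissues and rose by more than 3 log2 units. These 2 pairs are, however, the ones lost under the stricter match of IDs (33.0 against 33.1, and 606.1 against 606.0). Ag.2L.606.1_UTR_s_at is also of the shared type and can report more than 1 gene. Another partner of Ag.2R.33.1_a_at, Ag.2R.33.1_at, does meet the stricter match. It measured 11.68, 12.09 and 11.05 in serosa and 7.69, 6.43 and 7.96 in embryo. Its difference was 4.25, and only embryo replicate 2 kept it out of the count. The other 3 partners above 7.0 on every embryo array, which meet the stricter match, had smaller differences. They were a coding probe set and 2 UTR probe sets with differences of 1.79, 1.49 and 1.57. A further UTR probe set, Ag.3L.324.0_UTR_a_at, measured 12.11, 12.78 and 11.22 in serosa and 6.97, 7.23 and 6.71 in embryo. Its difference was 5.07. The coding member of the same arm and number, Ag.3L.324.0_CDS_a_at, measured 7.16, 8.12 and 8.08 in serosa and 4.84, 4.80 and 4.74 in embryo, all 3 embryo values under the human-probe level.

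**Figure D5:**
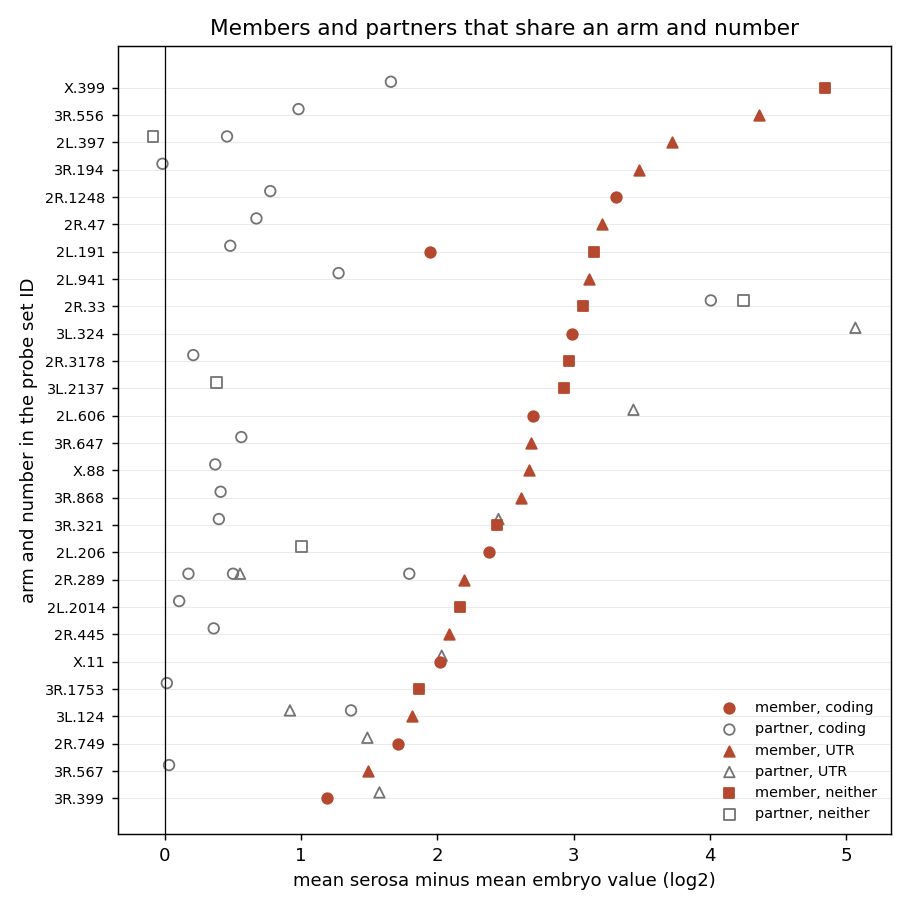
Mean serosa minus mean embryo value (log2, horizontal axis) for the members (filled red) and their partners (open grey, drawn slightly higher) in the 27 arms and numbers that hold both, with the class of the probes by symbol (circle coding, triangle UTR, square neither). Partners have a median difference of 0.62 and a range of -0.09 to 5.07, and 18 of the 34 exceed the human-probe level on no array.

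The 12 UTR members all had a coding partner. In the 14 such pairs the coding partners had a median difference of 0.48, beside 2.65 for the UTR members, although 8 of the 14 did not exceed the human-probe level on any array. Of the 14 coding partners, 2 (14.3%) lay above 7.0 on each serosa array. That share was near the 15.2% found in the 401 pairs whose UTR probe set was above 7.0 on each serosa array without being a member. Ag.3R.194.0_UTR_at, a member, measured 9.51, 10.85 and 8.55 in serosa and 5.85, 6.32 and 6.30 in embryo. Its coding partner Ag.3R.194.0_CDS_at measured 6.22, 6.04 and 6.63 in serosa and 6.44, 6.09 and 6.42 in embryo, values that overlapped. Ag.3R.556.0_UTR_at measured 9.37, 10.86 and 9.17 in serosa and 4.87, 5.71 and 5.73 in embryo. Its coding partner Ag.3R.556.0_CDS_at measured 6.78, 7.33 and 7.23 in serosa and 6.32, 6.13 and 5.95 in embryo, a smaller difference of 0.98 without overlap. Where the coding probe set was the member and a UTR partner existed, in 5 pairs, the differences ranged from 1.19 to 2.99 for the coding members and from 1.49 to 5.07 for the UTR partners. Of these coding members, 4 did not exceed the human-probe level in embryo on any array, so the sizes were not ranked within pairs.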

How the data were processed

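Per the series' design text, the authors ran RMAExpress on 6 Affymetrix arrays (3 serosa, 3 embryo) and deposited the resulting log2 values. This method subtracts background, brings the arrays to a common distribution and combines the probes within a probe set. Total RNA per preparation cannot be read from such values. No source used here states its version or the probe set definitions. Arrays have no depth of reads, and with 3 a group their number sets the precision.

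For all 16884 Anopheles probe sets, limma 3.58.1 (lmFit, eBayes) was run under R 4.3.3 with no term but group, with Benjamini-Hochberg adjustment and a threshold of 0.05. The fit was tested on simulated data. Plots were made in matplotlib 3.10.9 under Python 3.11.15. The labels call the 3 samples of a group biological replicates and do not say what same-numbered ones share. Deviations from the group means correlated across groups for the same number (r of 0.324, 0.328 and 0.222 across probe sets), so the fit with the number as a block is printed where it changes a call.

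The members, lists and tests were chosen with earlier results of these data known. Members named are the 4 with the highest serosa mean, the 4 with the widest gap, the 2 each with the smallest and largest SD among serosa arrays, those nearest the limits, and the 3 arms and numbers with most members (ties by ID). Others are said to be named after their values were seen, as are the partner examples. Gene lists and sequences were not used, since no ID could be paired with a gene. A probe set counted as bright if its average across arrays was above the average human-probe level. Alternatives were other limits, scalings, filters, fits and left-out arrays.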

Additional observations from a re-analysis of the deposited data

Results flagged for a closer look

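Of 937 probe sets whose IDs are sequence accessions, which the comparison of Anopheles IDs does not use, 1 also met the limits. It measured 8.19, 9.72 and 8.60 on the serosa arrays and 6.18, 6.29 and 5.88 on the embryo arrays, a log2 difference of 2.72, and it was highest on serosa replicate 2 like most members. It drew attention as signal outside the main measurement and above the level in embryo.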

How the results depend on the processing

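The number of members was 84 to 141 over the other settings tried, except for 186 with 1 limit of 6.5 and no gap, and 58 with the hybridization controls made equal. All 111 stayed chosen in both of the other scalings, while 54 did with the controls equal, 55 with limits of 6.0 and 6.5 and 75 with limits of 7.0 and 7.5. Leaving out 1 array gave 115 to 136, and the 111 are among them by construction. The median difference of the members stayed above 2.3 under the other limits and scalings, with 2.37 for 1 limit of 6.5, and lay between 2.66 and 3.05 with 1 array left out. With controls equal, the median level on serosa replicate 2 was 8.20, against 9.07 and 9.34 under the other scalings. The shares of UTR, coding, X and UNKN members stayed inside their intervals under the other limits and scalings and with 1 probe set per arm and number, and were not recomputed with arrays left out.

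With 1 array left out and the members chosen again, 96 to 135 were called, out of 115 to 136 chosen. Under the other settings, 99 to 111 of the original 111 members were called. These counts are descriptions, since the rule used the same contrast. The replicate block called 111 members and 2725 Anopheles probe sets, 749 of them higher in serosa, against 2093 and 609 without it, and changed no other call on members. Equal bright medians gave 3283 calls, 2290 of them higher, and equal controls gave 312 higher. With 1 array left out the calls were 972 to 1977, 312 to 682 of them higher, the fewest in all without embryo replicate 3 (972), embryo replicate 2 (990) and serosa replicate 1 (1254). Members with a partner above 7.0 on every embryo array numbered 5, 3 where the third field of the ID had to match too, 1 with controls equal, and 5 to 7 with 1 array left out. The cause was not tested. Of 162 recomputed log2 differences of members picked by the naming rule, 10 moved by more than the replicate SD. None reversed, but with 1 array left out the rule excluded a reversal. The scalings by bright medians and by controls shifted all members alike. Members named after their values were seen were not recomputed.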
